A study of Arabidopsis thaliana with 9 samples.

Results

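FLOWERING LOCUS C (FLC, AT5G10140) and its relatives MADS AFFECTING FLOWERING 1 to 5 (MAF1, AT1G77080; MAF2, AT5G65050; MAF3, AT5G65060; MAF4, AT5G65070; MAF5, AT5G65080) form a clade of MADS-box transcription factors that delay flowering in Arabidopsis. The 6 genes were taken by their identifiers, with earlier results of these data known, and each had a value of its own among the 33302 features of the deposited expression table. The table holds 4 RNA libraries made from Arabidopsis thaliana leaves, 21 days old and of the Columbia-0 background, grown in soil at 23 °C with 16 h of light and 8 h of dark. In both groups the plants had a transgene of the histone H3 gene AT4G40040 beside the endogenous H3 genes. It was unmutated in the 2 libraries called WT, which are therefore not plain Columbia-0, and coded for methionine in place of lysine 36 in the 2 called K36M. The promoter of the inserted gene and the number of lines or plants per library are not stated in the labels. Those of the RNA libraries also do not say whether the K36M insertion was heterozygous or homozygous. Each group consists of duplicate biological replicates per the labels, and nothing says how plants were divided between them, so a p-value here measures the spread between these libraries only. The comparison asks which transcripts differ when plants carry the mutated in place of the unmutated inserted histone.

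FLC and the MAF proteins bind CArG boxes in flowering genes, among them FT and SOC1, and lower their transcription, in part together with the related MADS-box protein SVP. Active FLC chromatin carries H3K36me3, which depends largely on the methyltransferase SDG8 (also called EFS), and plants without SDG8 have low FLC and MAF transcript levels and flower early. Columbia-0 carries a non-functional allele of FRIGIDA (FRI), the main activator of FLC, and so has low FLC in most tissues. MAF1, also called FLM, is spliced into forms whose balance follows temperature, and MAF2 to MAF5 lie side by side as a tandem cluster.

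Expression was read as FPKM (fragments per kilobase of a gene, set against the library's total), so levels can be compared between genes. Total fragments per library are not given, and precision rests on the spread between replicates. FPKM sums ranged from 766727 to 2150314 per library, with 1.39% to 34.6% of the sum in a single short gene model, AT2G01021. WT replicate 1 stood apart, with Pearson r across genes of 0.821 to 0.834 to the other libraries, against 0.937 to 0.950 among those. Fold changes are differences of group means of log2(FPKM + 1), on which changes of low genes look smaller than they are. They were tested with limma over the 17738 features whose mean reached 1 FPKM and adjusted by Benjamini-Hochberg at a threshold of 0.05. That test called 7 features, 0.0395% of those tested, and 13 without WT replicate 1, 702 without WT replicate 2, and 0 without K36M replicate 1 or without K36M replicate 2 (limma, 216 and 151 at an unadjusted p under 0.05).

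All 5 members that passed the filter had a log2 fold change below 0, as did 54.4% of all features tested. None was called (limma, 0 of 5, against 0.0395% of all features), and MAF1 and MAF4 had an unadjusted p under 0.05 in this direction, as did 2.37% of all features. FLC, with a mean of 0.9999 FPKM, was just short of the filter and was not tested. MAF4 and MAF5 had K36M means under 1 FPKM and passed the filter through their WT values, MAF5 through WT replicate 2 alone. The filter itself thus favoured a log2 fold change below 0 for MAF4 and MAF5. The count of 5 below 0, the median of the tested members and the place of MAF4 under an unadjusted p of 0.05 are partly set by it. For MAF1 and MAF4 the 2 K36M libraries lay well under the lower WT library. MAF5 and FLC had their highest value in WT replicate 2 and MAF2 in WT replicate 1. MAF3 differed little. In 4 of the 5 tested members, MAF1, MAF3, MAF4 and MAF5, the higher K36M value was under the lower WT value, against 19.3% of all features tested. The filter favoured this too for MAF4 and MAF5. The gap was narrow in MAF3, at 6.70 against 6.84 FPKM, and in MAF5, at 0.140 against 0.160 FPKM. The median log2 fold change of the 5 tested members was -1.44, and that of all features tested was -0.05. That -1.44 is the value of MAF5, which was -0.08 without WT replicate 2.

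**Figure D1:**
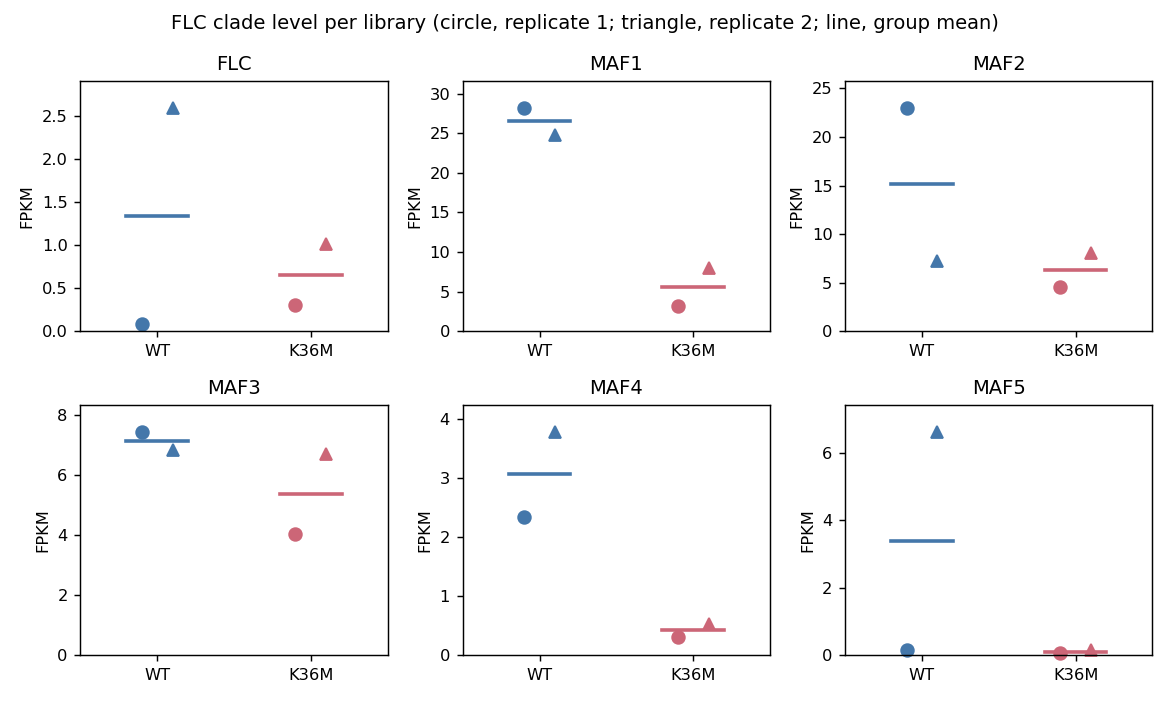
Level of each FLC clade member in FPKM (y axis, linear, from 0, a separate scale per gene) in WT and K36M leaves; points are libraries (circle, replicate 1; triangle, replicate 2) and lines are group means of 2 libraries. MAF1 and MAF4 show a gap between the groups, whereas in FLC, MAF2 and MAF5 1 WT library stands far from the other.

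MAF1, a repressor whose splice forms respond to ambient temperature, was read at 28.2 and 24.8 FPKM in WT replicates 1 and 2, against 3.12 and 7.93 FPKM in K36M replicates 1 and 2. The WT libraries were close to each other and the groups did not overlap. The means were 26.5 ± 2.39 FPKM (WT) and 5.52 ± 3.40 FPKM (K36M; SD, n = 2 each), so the WT mean was 4.80 times the K36M mean. The log2 fold change was -2.18 ± 0.49 (SE; limma unadjusted p = 0.0043, adjusted p = 1 over all features). Only 0.863% of the features tested had a lower fold change. Between the replicate 1 libraries the log2 difference was -2.83 and between the replicate 2 libraries -1.53. MAF1 is annotated with 11 transcripts in RefSeq, and FPKM per gene does not separate its splice forms.

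MAF4, another repressor of the tandem cluster, was read at 2.33 and 3.78 FPKM in WT against 0.308 and 0.525 FPKM in K36M. Both K36M libraries were several-fold lower than either WT library. The group means were 3.05 ± 1.02 and 0.417 ± 0.153 FPKM (SD, n = 2 each), a WT mean 7.33 times the K36M mean. The log2 fold change was -1.50 ± 0.46 (SE; limma unadjusted p = 0.016, adjusted p = 1). The difference was of like size in both replicate numbers, -1.35 between the replicate 1 libraries and -1.65 between the replicate 2 libraries. Both K36M values are under 1 FPKM, where the added pseudocount weighs most. With a pseudocount of 0.1 FPKM the log2 fold change was -2.60. The MAF4 locus, like that of FLC, is known to give antisense transcripts as well. Whether strand was used in counting is not given in the sources used here, so sense and antisense reads cannot be told apart.

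MAF5, the last gene of the cluster, was read at 0.160 and 6.64 FPKM in WT against 0.0596 and 0.140 FPKM in K36M. WT replicate 2 alone was high, at 41.5 times WT replicate 1, while WT replicate 1 was only slightly above the K36M libraries. The log2 fold change was -1.44 ± 0.90 (SE; limma unadjusted p = 0.16, adjusted p = 1). Leaving out WT replicate 2 gave -0.08 and leaving out WT replicate 1 gave -2.80 (limma adjusted p = 0.86 and 0.067, range 0.067 to 1 over the alternatives). In each of these fits a lone WT library is assumed to vary like the 2 K36M libraries, although the WT libraries themselves differed by 41.5 times. With a pseudocount of 0.1 FPKM the log2 fold change over all 4 libraries was -2.76. The difference was -0.13 between the replicate 1 libraries and -2.74 between the replicate 2 libraries.

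MAF2, a repressor known to prevent flowering after short spells of cold, was read at 23.0 and 7.26 FPKM in WT against 4.57 and 8.04 FPKM in K36M. WT replicate 1 alone was high and the groups overlapped. The log2 fold change was -0.99 ± 0.61 (SE; limma unadjusted p = 0.15, adjusted p = 1). Leaving out WT replicate 1 gave -0.22 and leaving out WT replicate 2 gave -1.76, and the difference was -2.11 between the replicate 1 libraries but 0.13 between the replicate 2 libraries.

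MAF3, its neighbour, was read at 7.46 and 6.84 FPKM in WT against 4.03 and 6.70 FPKM in K36M. The higher K36M value lay just under the lower WT value. The log2 fold change was -0.39 ± 0.41 (SE; limma unadjusted p = 0.38, adjusted p = 1), smaller than its error. Between the replicate 2 libraries it was -0.03.

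FLC, the repressor silenced by winter cold, was the lowest member in WT, read at 0.0894 and 2.60 FPKM in WT against 0.305 and 1.01 FPKM in K36M. WT replicate 1 was the lowest and WT replicate 2 the highest of the 4 libraries, so both K36M values lay inside the WT range. The difference of the group means on the log2(FPKM + 1) scale was -0.29 and was not tested under the main filter. With the filter at a mean of 0.5 FPKM it was tested at the same -0.29 and not called (limma adjusted p = 1). It was 0.26 between the replicate 1 libraries and -0.84 between the replicate 2 libraries, and 0.57 without WT replicate 2. Replicate 2 was 29.1 times replicate 1 in WT and 3.31 times replicate 1 in K36M.

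**Figure D2:**
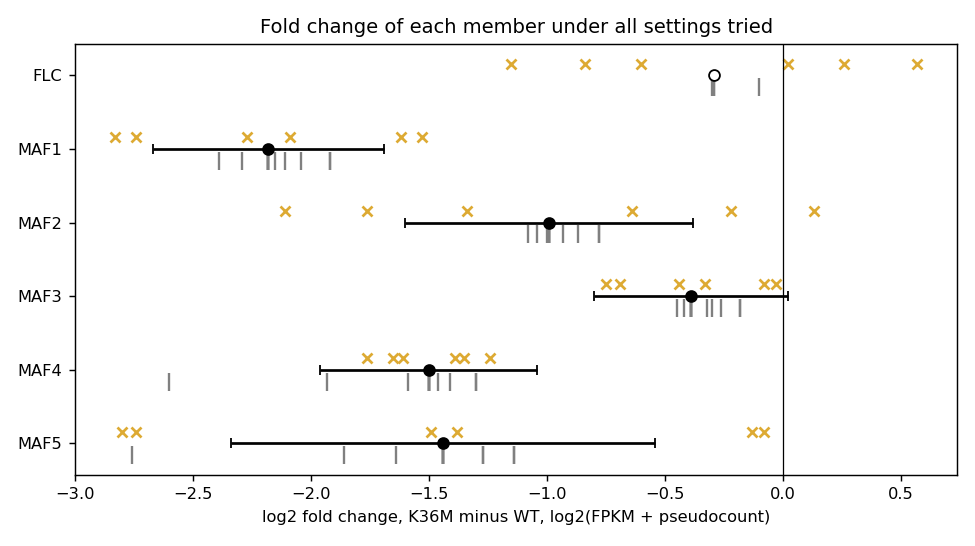
Log2 fold change of each member, K36M minus WT, on the log2(FPKM + pseudocount) scale (x axis); black points with bars are the main values ± SE (limma, 2 libraries per group; FLC, open, was not tested), grey ticks other settings, and yellow crosses values with a library left out or from 1 replicate number only. The MAF1 and MAF4 marks all lie at -1.24 or lower, whereas FLC and MAF2 have marks on both sides of 0.

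Scaling was checked for each direction. Scaling by 8 reference genes moved the median log2 fold change of all features by 0.13, and the members' values under it were -2.04 for MAF1, -1.41 for MAF4, -1.27 for MAF5, -0.87 for MAF2 and -0.26 for MAF3. MAF1 and MAF4 kept both K36M values below both WT values in 13 of the 13 settings with all 4 libraries, the main one included. MAF5 did so in 11, not where each library's trend with gene span was removed. MAF3 did so in 9, not with that removal, with reference gene scaling or with equal FPKM sums. With the span trend removed the fold changes were -1.92 for MAF1 and -1.30 for MAF4. With 2 libraries against 2, an exact two-sided permutation test of a single value cannot go below p = 0.333, so none is given. MAF2 to MAF5 are related copies in tandem, and how reads shared between copies were assigned is not given in the sources used here, so single values within the cluster are uncertain to that extent.

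The member with the highest FPKM differed between the groups, and the order below it also varied between the libraries of each group. In WT, MAF1 was the highest, followed by MAF2 and MAF3, in both libraries. In K36M, MAF2 was the highest in both libraries, and MAF1, MAF2 and MAF3 lay within the replicate spread of each other, with means of 5.52 ± 3.40, 6.30 ± 2.46 and 5.37 ± 1.89 FPKM (SD, n = 2). In WT, MAF2 and MAF3 also did not differ beyond the spread of MAF2, 15.1 ± 11.1 against 7.15 ± 0.438 FPKM. MAF4, MAF5 and FLC were the 3 lower members in every library, MAF5 coming close to MAF3 in WT replicate 2. Their WT means of 3.05 ± 1.02, 3.40 ± 4.58 and 1.34 ± 1.77 FPKM did not differ beyond their spread.

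Summed over the 6 genes, the clade came to 61.3 and 51.9 FPKM in WT against 12.4 and 24.3 FPKM in K36M. The sum was lower in both K36M libraries than in either WT library. As a share of a library's total FPKM it was 0.00799% and 0.00242% in WT and 0.00133% and 0.00180% in K36M, again without overlap but with WT replicate 2 closer to K36M than to WT replicate 1. MAF1 made up 46.1% and 47.8% of it in WT and 25.2% and 32.6% in K36M. MAF3 made up 12.2% and 13.2% in WT and 32.5% and 27.5% in K36M. Ratios of members within a library do not depend on how libraries are scaled. The ratio of MAF1 to MAF3 was 3.78 and 3.63 in WT and 0.774 and 1.18 in K36M. The ratio of MAF4 to MAF3 was 0.312 and 0.552 in WT and 0.0764 and 0.0783 in K36M. Relative to MAF3, both genes were thus lower in K36M, without overlap. The ratio of MAF2 to MAF3 overlapped, at 3.09 and 1.06 in WT and 1.13 and 1.20 in K36M.

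**Figure D3:**
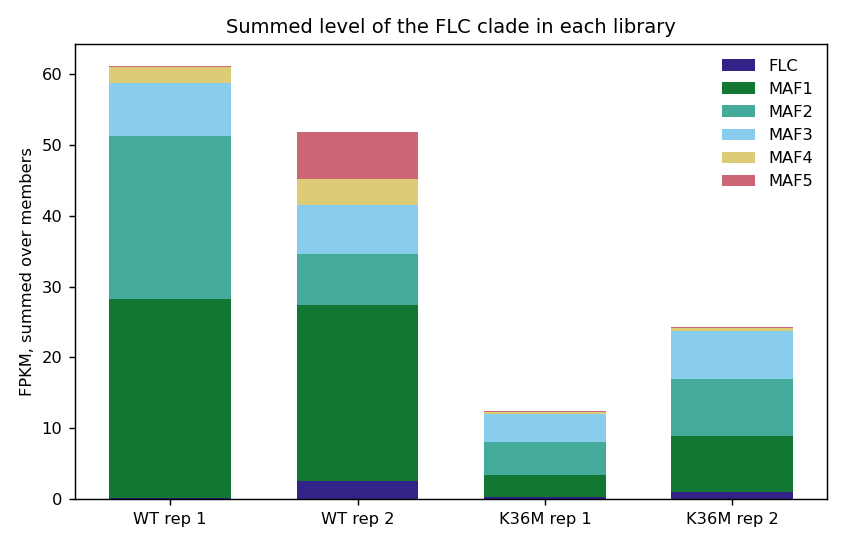
Summed FPKM of the 6 clade members in each of the 4 libraries (y axis, linear, from 0), stacked by gene. The bars reach 61.3 and 51.9 FPKM in WT against 12.4 and 24.3 FPKM in K36M, and the MAF1 segment is the largest in both WT bars.

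Markers of other cells were read in the same libraries, since leaf samples can hold some shoot apex. Leaf identity was clear, with the rubisco small subunit gene RBCS1A between 21082 and 49053 FPKM. Over 10 shoot meristem markers the sum was 16.1 and 33.8 FPKM in WT against 39.2 and 30.1 FPKM in K36M. CLV1 made up most of it in WT replicate 1. This gene was at 15.1 and 16.6 FPKM in WT against 15.1 and 10.8 FPKM in K36M. Of the 6 markers tested, 4 had K36M above both WT libraries (12.1% of all features tested). Among them KNAT2, KNAT6 and CUC3 had WT means under 1 FPKM and passed the filter through their K36M values. STM, a defining meristem gene, was listed at 0 in WT replicate 1 and at 9.73, 10.6 and 7.89 FPKM in WT replicate 2 and K36M replicates 1 and 2. The stem cell markers WUS and CLV3, below the filter, were also above both WT libraries in both K36M libraries, at low levels. WUS was at 0 and 0.114 FPKM in WT against 0.425 and 0.222 FPKM in K36M, and CLV3 at 0.229 and 0 FPKM against 0.472 and 0.733 FPKM. Of the other markers below the filter, LAS was likewise above both WT libraries and CUC2 overlapped between the groups. FLC and MAF5 shared with STM a low value in WT replicate 1 and a high one in WT replicate 2. In K36M, where STM was high, FLC was at 0.305 and 1.01 FPKM and MAF5 at 0.0596 and 0.140 FPKM. Over 7 epidermis markers the sum was 179 and 729 FPKM in WT against 617 and 494 FPKM in K36M. PDF1 carried much of this spread, at 4.81 and 404 FPKM in WT against 313 and 213 FPKM in K36M. All listed but PDF2 were lowest in WT replicate 1. ATML1 varied far less than PDF1, at 13.5 and 20.1 FPKM in WT against 17.6 and 19.4 FPKM in K36M. Over 7 phloem markers it was 381 and 302 FPKM in WT against 307 and 315 FPKM in K36M, with SUC2 at 113 and 119 FPKM in WT against 101 and 87.5 FPKM in K36M. Over 5 floral organ markers it was 1.87 and 1.29 FPKM in WT against 9.69 and 17.1 FPKM in K36M, with AP3 listed at 0 in both WT libraries. The part of tissue make-up in the members' values was not tested. In bulk RNA, fewer cells of a type and less RNA per cell cannot be told apart.

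Genes that act on the clade were read next. In none of the 5 lists of regulators was a member called (limma, 0 of 47 tested, against 0.0395% of all features). None had an unadjusted p under 0.05 (limma), against 4.12% of all features. The 9 tested genes of the FRIGIDA complex and other FLC activators had a median log2 fold change of -0.06, from -0.63 to 0.18. SUF4, the zinc finger protein that brings FRIGIDA to FLC, was at 16.9 and 14.3 FPKM in WT against 11.7 and 7.97 FPKM in K36M (log2 fold change -0.63 ± 0.40; limma adjusted p = 1). PIE1 and ARP6, parts of the SWR1 complex that deposits the histone variant H2A.Z, had log2 fold changes of -0.34 ± 0.55 and -0.32 ± 0.44. FRI itself averaged 2.46 ± 0.507 FPKM in WT against 2.21 ± 0.780 FPKM in K36M (SD, n = 2 each), a difference within the spread.

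The 11 tested genes of the PAF1 complex and of histone H2B ubiquitination, both needed for full FLC transcription, had a median of -0.27. VIP4, VIP5 and ELF7, all PAF1 subunits, had log2 fold changes of -0.46 ± 0.50, -0.43 ± 0.38 and -0.39 ± 0.39. Among 8 H3K36 and H3K4 methyltransferase genes the median was -0.28. SDG8 was at 6.18 and 2.25 FPKM in WT against 2.45 and 1.94 FPKM in K36M, so that WT replicate 1 alone was high (-0.60 ± 0.51; limma adjusted p = 1). The H3K4 methyltransferases ATXR7 and ATX2 had -0.51 ± 0.62 and -0.38 ± 0.46. MAF1, at -2.18, and MAF4, at -1.50, lay outside the range of every one of these lists.

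The autonomous pathway lowers FLC, through RNA processing and chromatin. Its 8 tested genes had a median of -0.40, and in 5 the higher K36M value was under the lower WT value, against 19.3% of all features. FCA, an RNA-binding protein, was at 5.35 and 5.50 FPKM in WT against 3.66 and 2.05 FPKM in K36M (-0.77 ± 0.41; limma adjusted p = 1). FLD, a lysine demethylase-like protein that acts with it, had -0.54 ± 0.39 and FPA, another RNA-binding protein, -0.51 ± 0.42. The Polycomb and vernalization genes that silence FLC had a median of 0.02 over 11 tested. VEL1, a VIN3-like protein, was at 16.9 and 12.6 FPKM in WT against 21.8 and 21.0 FPKM in K36M (0.52 ± 0.40). LHP1, which binds H3K27me3, and VAL2, which binds RY elements, had -0.50 ± 0.46 and -0.49 ± 0.40. VIN3, the cold-induced member, was listed at 0 in 3 libraries and at 0.0262 FPKM in WT replicate 1.

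**Figure D4:**
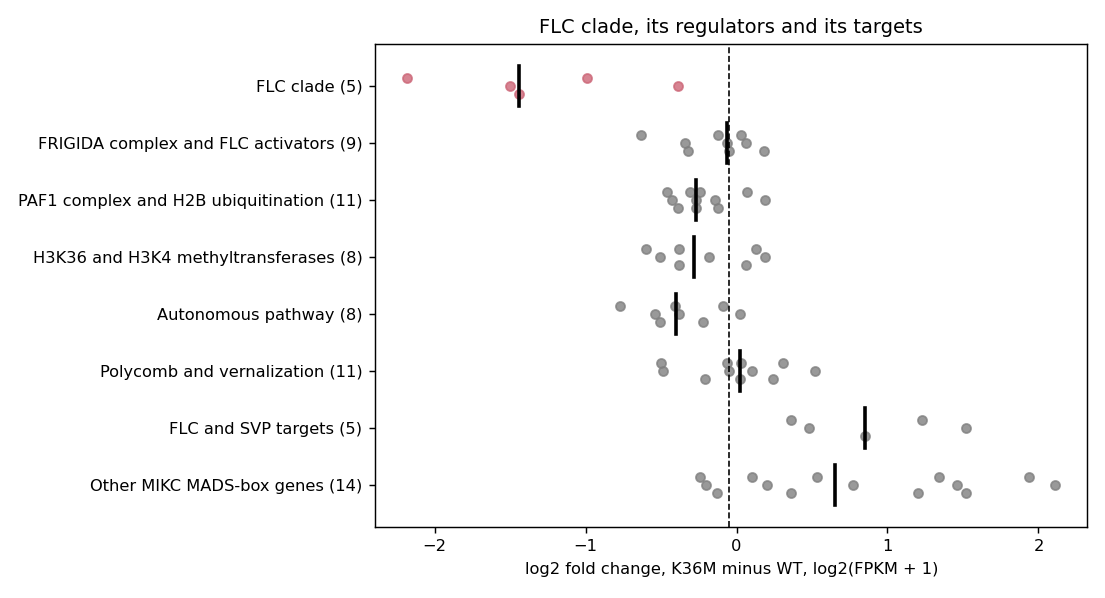
Log2 fold change, K36M minus WT, on the log2(FPKM + 1) scale (x axis) for the tested members of each list (number tested in parentheses); each point is a gene, spread vertically for legibility, solid bars are list medians, and the dashed line is the median of all features tested, -0.05. The FLC clade has its median at -1.44 (the value of MAF5) and the regulator lists between -0.40 and 0.02. The targets have theirs at 0.85 and the other MIKC MADS-box genes at 0.65, with SEP3 and SOC1 in both.

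SVP, the MADS-box partner of FLC and MAF1, was at 48.8 and 58.3 FPKM in WT against 49.6 and 41.1 FPKM in K36M (-0.24 ± 0.43; limma adjusted p = 1). It overlapped between the groups and was above every clade member in every library. Of 6 targets of FLC and SVP, 5 were tested, and none was called (limma, against 0.0395% of all features). An unadjusted p under 0.05 was had by 1 (limma), against 4.12%. The median log2 fold change of the 5 was 0.85, and in 3 both K36M values lay above both WT values, against 12.1% of all features tested. Among these 3, SEP3 had a WT mean of 0.616 FPKM and passed the filter through its K36M values. FT, the mobile flowering signal, was at 1.89 and 0.361 FPKM in WT against 2.89 and 4.56 FPKM in K36M (1.23 ± 0.53; limma unadjusted p = 0.059). SEP3, a floral MADS-box gene, was at 0.444 and 0.789 FPKM in WT against 2.17 and 5.68 FPKM in K36M (1.52 ± 0.52; limma unadjusted p = 0.027). SPL15, an age-dependent promoter of flowering, was at 1.18 and 2.30 FPKM in WT against 5.64 and 2.53 FPKM in K36M (0.85 ± 0.50). SOC1, the integrator repressed by FLC, overlapped at 28.4 and 9.15 FPKM in WT against 19.4 and 23.0 FPKM in K36M. Targets and clade were read in the same libraries, and the summed floral organ markers given above were also higher in both K36M libraries, as were 4 of the 5 markers, AG overlapping. Their part in the targets' values was not tested.

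Other genes of the MIKC MADS-box family, to which the clade belongs, were read for comparison. Of 33 such genes outside the clade, 14 passed the filter and none was called (limma, against 0.0395% of all features). Their median log2 fold change was 0.65, with 11 above 0, against 45.6% of all features tested, and 3 below 0. An unadjusted p under 0.05 was had by 6, against 4.12% of all features. In 7 of the 14 the K36M values were both above the WT values, against 12.1% of all features, and in 0 both under, against 19.3%. AP3, PI, AP1, AGL42, SEP3, SEP1 and, narrowly, AGL15 (WT mean 0.994 FPKM) had WT means under 1 FPKM and passed the filter through their K36M values. The filter itself thus favoured this direction, and the counts are partly set by it. The greatest fold changes were those of PI and AP3, which specify petals and stamens, at 2.11 ± 0.52 and 1.94 ± 0.45. The lowest was SVP at -0.24. Whether the clade differs from the rest of the family was not tested.

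The genes beside the members did not share the values of MAF1 and MAF4. Of the 18 genes that lie nearest to the FLC, MAF1 and MAF2 to MAF5 loci, 3 on each side, 12 passed the filter. Their log2 fold changes ran from -0.87 to 0.74 with a median of 0.12. None was called (limma, against 0.0395% of all features), and 0 had an unadjusted p under 0.05, against 4.12%. In 4 of the 12 the K36M values were both under the WT values and in 3 both above, against 19.3% and 12.1% of all features. Next to MAF1, AT1G77060 was at 18.7 and 47.0 FPKM in WT against 32.8 and 38.7 FPKM in K36M on one side. On the other, AT1G77090 was at 62.1 and 87.6 FPKM in WT against 60.9 and 86.6 FPKM in K36M. The lowest of the 12 was AT1G77030, also near MAF1, at 7.71 and 4.65 FPKM in WT against 2.57 and 3.14 FPKM in K36M (-0.87 ± 0.42; limma unadjusted p = 0.082).

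Beside the tandem cluster, AT5G65040, next to MAF2, was at 2.94 and 4.72 FPKM in WT against 2.11 and 2.30 FPKM in K36M (-0.57 ± 0.42). BST1, next to MAF5, was under 1 FPKM in every library. ACX2, an acyl-CoA oxidase gene further out, had -0.69 ± 0.46, and ANNAT2, an annexin gene on the other side, 0.74 ± 0.42. Beside FLC, AT5G10150 was at 13.8 and 11.0 FPKM in WT against 17.8 and 20.9 FPKM in K36M (0.61 ± 0.39), and AT5G10130 was under 1 FPKM in every library.

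**Figure D5:**
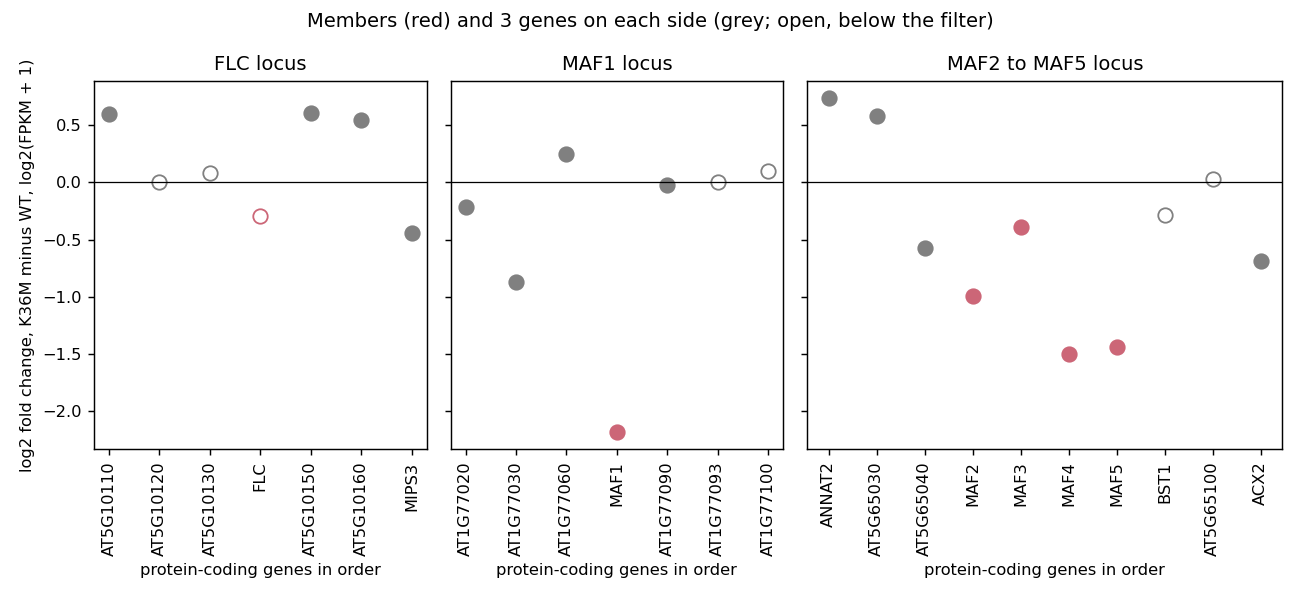
Log2 fold change, K36M minus WT, on the log2(FPKM + 1) scale (y axis) of the members (red) and the 3 protein-coding genes on each side (grey) at the 3 loci, in gene order and not to scale along the chromosome; open points were below the filter. MAF1, MAF4, MAF5 and MAF2 lie at -0.99 or lower, and the tested neighbours between -0.87 and 0.74. MAF3, at -0.39, and FLC, not tested, at -0.29, lie within the range of the neighbours.

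Likeness of pattern was measured as the Euclidean distance between 2 features' log2(FPKM + 1) values over the 4 libraries, after subtracting each feature's mean. With 4 libraries many features lie close to any flat pattern, so the distances are a description. Nearest to MAF1 were AT3G62220, at a distance of 0.477, with 9.02 and 9.89 FPKM in WT against 1.01 and 1.87 FPKM in K36M, and AT1G65484 at 0.495. These 2 were the only features within 0.5 of MAF1, and MAF4 ranked 71st, at 1.05. MAF4 had 39 features within that distance, led by the splicing factor gene RS31a at 0.0680 and the leucine aminopeptidase gene LAP2 at 0.170. RS31a was at 6.99 and 9.84 FPKM in WT against 2.08 and 2.68 FPKM in K36M. MAF5 had 2, the microRNA gene MIR858a at 0.134, listed at 0 in every library except WT replicate 2 with 5.34 FPKM, and ELI3-2 at 0.208. MAF2 had 201, led by AT1G56300 at 0.0497 and AT5G24210 at 0.0699, and MAF3 had 2077, led by AT3G51940 at 0.00356 and CP33 at 0.0193. No member was among the 2 nearest features of another.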

How the data were processed

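Per the labels' protocols, leaf RNA went into libraries prepared by a strand-preserving mRNA kit. The authors deposited FPKM per feature, condition and replicate in 1 table without a header, in which 233 features join several genes. The 4 libraries were identified by the condition and replicate codes that their labels quote. Bowtie2, bedtools and the build TAIR10 appear in the submitters' processing notes, with no role given. The sources used here do not name the FPKM program. The series also lists H3K36me3 chromatin immunoprecipitation samples, not analysed here. Depth in fragments is unknown, so no counting error is given.

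Values were analysed as log2(FPKM + 1) with limma 3.58.1 in R 4.3.3 (two-sided, variances moderated by eBayes along a trend with the mean, Benjamini-Hochberg over all 17738 features tested). The step was tested on simulated data with changes far larger than those of the members, so it does not show power for changes of their size. Tables and figures used Python 3.11.15, pandas 2.3.3 and matplotlib 3.10.9. Symbols, gene order, spans and transcript numbers came from RefSeq's TAIR10.1 annotation, where 32349 of 33069 single features and all 6 members were found. That build differs from the authors', so coordinates are left out, and no sequences were used here.

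The members, lists and tests were chosen with earlier results of these data known. Named genes were the members, up to 3 tested genes per list with the greatest change, SDG8, FRI, SVP, FT and SOC1, neighbours of the loci, and the 2 nearest patterns per tested member. RBCS1A, VIN3, WUS, CLV3 and AP3 as markers were named after seeing their values. So were CLV1, KNAT2, CUC2, CUC3, LAS, ATML1, PDF2, AP1, AGL42 and AGL15. The alternatives changed the pseudocount, the filter or the scaling, or used removal of the gene span trend, limma settings, the replicate number as a block, and each library left out. The 8 reference genes used for one scaling are commonly used housekeeping genes such as ACT2 and UBQ10.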

Additional observations from a re-analysis of the deposited data

How the results depend on the processing

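No clade member was called by limma under any of the 16 alternatives that give a test, of which 2 tested FLC. The log2 fold changes of MAF1, MAF3, MAF4 and MAF5 stayed below 0 in all 18 alternatives, from -2.83 to -1.53 for MAF1, -0.75 to -0.03 for MAF3, -2.60 to -1.24 for MAF4 and -2.80 to -0.08 for MAF5. MAF2 ranged from -2.11 to 0.13 and was above 0 only between the replicate 2 libraries, at 0.13. FLC ranged from -1.15 (without WT replicate 1) to 0.57 and was above 0 between the replicate 1 libraries (0.26), without WT replicate 2 (0.57) and without K36M replicate 1 (0.02), and below 0 in the other 7. In fits that leave out a library the lone library of its group is assumed to vary like the other group, so their p-values are not comparable with the rest. The lowest adjusted p, 0.067 for MAF5 without WT replicate 1, came from such a fit. The 7 features called among all tested became 0 with no filter and 0 with the replicate block (limma, 1175 and 794 at an unadjusted p under 0.05), and leaving out 1 library gave 0 to 702. The cause was not tested. The shared replicate numbers are not tied to a batch, day or plant by the labels. The deviations of same-numbered libraries correlated at 0.128 over 17738 features and 2 pairs, so the numbers were not treated as pairing, and the replicate block left each member uncalled. Scaled by reference genes or to equal FPKM sums, features could pass or leave the filter, so the number tested varied, at 17816 and 17905. Removal of the span trend left out features without a RefSeq span, and 17473 were tested. Values under 1 FPKM, which FLC, MAF4 and MAF5 reach, rest on few fragments of unknown number.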

Other observations

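Ranked among the features above 0 in the same library, MAF1 stood at percentiles 83.8 and 77.0 in the WT libraries and 40.7 and 56.2 in the K36M libraries. MAF5, in contrast, stood at percentiles 14.1 and 51.9 in the WT libraries and 3.51 and 4.85 in the K36M libraries. The percentiles of MAF3 were 56.6 and 52.5 in WT, and 45.6 and 52.4 in K36M, where the replicate 2 libraries were almost the same. FLC had its highest percentile, 34.3, in WT replicate 2 and its lowest, 10.4, in WT replicate 1.

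Chosen after their values were seen, 2 other MADS-box genes that passed the filter shared the high WT replicate 1 value of MAF2. AGL16 was at 30.0 and 8.54 FPKM in WT against 27.6 and 20.7 FPKM in K36M, and SOC1 at 28.4 and 9.15 FPKM and 19.4 and 23.0 FPKM. Unlike MAF2, at 4.57 and 8.04 FPKM, both were well above their WT replicate 2 value in both K36M libraries. AGL19, a vernalization-induced gene below the filter, was at 1.63 FPKM in WT replicate 1 and at 0, 0.113 and 0.235 FPKM in WT replicate 2 and K36M replicates 1 and 2.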
